A study of Mus musculus with 13 samples.

Results

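Transcript levels of 10 genes for endoplasmic reticulum (ER) chaperones and quality-control proteins were followed in mouse adrenal glands before and after the Star gene was deleted: Hspa5, Hsp90b1, Calr, Dnajb9, Sdf2l1, Pdia4, Pdia6, Xbp1, Herpud1 and Edem1. They were chosen by name for their roles, and all 10 were among the 14078 genes listed in every table and tested. The study is on lipoid congenital adrenal hyperplasia, in which loss of STAR, which brings cholesterol to the mitochondrial enzyme that starts steroid synthesis, leaves the adrenal cortex filled with lipid. The libraries, of stranded mRNA, came from adrenal glands of mice of the C57BL/6 strain with a Star knockout that TAM (tamoxifen) induces. There were 5 libraries taken before TAM, 4 taken 24 h after TAM and 4 taken 8 weeks after TAM. The labels give all 3 groups the same strain and call the first one the state before the knockout. They name no Cre driver, sex or age. No listed group received TAM without losing Star, so the effects of TAM, of time and of Star loss cannot be told apart. The libraries of a group are numbered but not stated to come from separate animals, and the spread behind each p-value may therefore not be that between animals.

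Proteins that enter the secretory pathway fold in the ER with the help of chaperones, thiol oxidoreductases and lectins, and those that fail to fold are sent back to the cytosol for degradation. When unfolded proteins build up, BiP (the product of Hspa5) leaves the sensors IRE1, ATF6 and PERK, which start the unfolded protein response. IRE1 cuts a short stretch out of Xbp1 mRNA and so makes the active transcription factor, cleaved ATF6 acts on chaperone promoters, and PERK slows translation and raises ATF4 and CHOP. Steroid-making cells hold much smooth ER, where several steroid hydroxylases reside.

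The depth was 17331673 to 27309429 listed reads per library. Star itself, the check of the labels, had 3207, 3763, 4239, 4083 and 3694 FPKM before TAM (fragments scaled to transcript length and sequencing depth), 487, 626, 17.4 and 208 FPKM at 24 h, and 126, 202, 85.9 and 171 FPKM at 8 weeks. Star fell by 3.39 on the log2 scale at 24 h (SE 0.74), with an adjusted p of 0.00691 by edgeR's quasi-likelihood test with Benjamini-Hochberg adjustment over all genes. At 8 weeks it fell by 4.56 (SE 0.78), with an adjusted p of 0.000755. The library labelled 24 h replicate 3 stood apart. Its 10 steroid-making cortex markers summed to 4435 FPKM, against 17220 to 28880 FPKM in the other 24 h libraries, its 8 medulla markers to 19.6 FPKM, against 117 to 4135 FPKM, and its 7 fat cell markers to 50.4 FPKM, against 1532 to 2524 FPKM. Counts of called genes that change without it are given both ways for the 10 genes and for the other pathway genes. Macrophage markers rose in 10 of 10 genes at 24 h and at 8 weeks, and the 10 together summed to 405 to 1099 FPKM before TAM, 2372 to 4176 FPKM at 24 h and 5209 to 10090 FPKM at 8 weeks. Capsule and fibroblast markers rose in 6 of 8 genes at 24 h and 7 of 8 at 8 weeks, with sums of 174 to 498 FPKM before TAM, 700 to 1078 FPKM at 24 h and 1071 to 1824 FPKM at 8 weeks. Fat cell markers rose in 3 of 7 genes at 8 weeks, or 6 of 7 without 24 h replicate 3, and summed to 179 to 1208 FPKM before TAM and 4289 to 10570 FPKM at 8 weeks. In bulk tissue, fewer cells of a type and less RNA per cell cannot be told apart, and the part that a shift in cell types plays in the results below was not tested.

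Before TAM the 10 genes spanned a wide range of levels on the FPKM scale, which is per length. Hsp90b1 had 418 ± 39.2 FPKM, Calr 348 ± 48.5 FPKM and Hspa5 334 ± 46.1 FPKM (SD, n = 5 for each gene in this paragraph). The ranges of these neighbours overlapped, and all 3 lay above every other member. Xbp1 had 110 ± 10.6 FPKM and Pdia6 91.1 ± 9.49 FPKM, with overlapping ranges. Herpud1 followed at 58.1 ± 3.91 FPKM, apart from Pdia4 at 45.6 ± 2.42 FPKM. Dnajb9, at 40.4 ± 2.90 FPKM, overlapped with Pdia4. Edem1 at 14.5 ± 1.73 FPKM and Sdf2l1 at 10.9 ± 1.19 FPKM were the least abundant, and their ranges overlapped.

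The promoters of 5 members are shown because they hold, in full, a motif that ATF6 is known to use. The search covered the 250 bases before the start of each gene in RefSeq (GRCm38.p6, all 10 members matched) on both strands. The ER stress response element (ERSE), which is CCAAT, any 9 bases and CCACG, occurred in 4 of 10 members, against 0.113% of 32851 promoters in the table. The element ERSE-II, which is ATTGG, any 1 base and CCACG, occurred in Herpud1 and in 0.0304% of promoters. ATTGG is CCAAT read on the other strand, so both motifs hold the same boxes. The 10 genes were chosen for their known roles, so these motif counts are a description and not a test of enrichment. Alone, CCAAT occurred in 9 of 10 members (33.8% of promoters) and CCACG in 8 of 10 (28.3% of promoters). TGACGTGG, the element bound by XBP1, was found in none of these 10 windows and in 0.563% of promoters. Each sequence below runs 5′ to 3′ on the gene's strand with the motif in capitals, and distances are counted from the RefSeq start. The elements of Calr and the second of Hsp90b1 stand on the other strand, so the capitals show their reverse complement. Apart from that of Hspa5, the sequences end at the most upstream start of the gene in RefSeq, in the deposited coordinates or among the coding transcripts of GENCODE. A GENCODE transcript of Hspa5 starts upstream of its element, so only the element with 5 bases on each side is shown for Hspa5. In Hspa5 (chr2:34772020-34772048, + strand) the element lies 65 to 47 bases before the RefSeq start. Calr (chr8:84847069-84847181, − strand) and Pdia6 (chr12:17266339-17266544, + strand) hold 1 element each, Hsp90b1 (chr10:86705510-86705694, − strand) holds 2, 1 on each strand, and Herpud1 (chr8:94386179-94386428, + strand) holds ERSE-II 52 to 42 bases before its start.
Hspa5: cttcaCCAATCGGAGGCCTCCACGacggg
Calr: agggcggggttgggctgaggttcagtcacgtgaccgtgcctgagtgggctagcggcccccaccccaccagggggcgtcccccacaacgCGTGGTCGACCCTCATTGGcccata
Pdia6: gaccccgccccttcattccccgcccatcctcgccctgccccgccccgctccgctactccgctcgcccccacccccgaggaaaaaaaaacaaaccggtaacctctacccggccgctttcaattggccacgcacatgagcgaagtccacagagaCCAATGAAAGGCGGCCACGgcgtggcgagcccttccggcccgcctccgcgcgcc
Hsp90b1: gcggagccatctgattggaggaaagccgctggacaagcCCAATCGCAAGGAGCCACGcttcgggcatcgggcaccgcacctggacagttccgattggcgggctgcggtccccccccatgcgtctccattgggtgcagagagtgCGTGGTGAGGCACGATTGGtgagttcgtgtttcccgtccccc
Herpud1: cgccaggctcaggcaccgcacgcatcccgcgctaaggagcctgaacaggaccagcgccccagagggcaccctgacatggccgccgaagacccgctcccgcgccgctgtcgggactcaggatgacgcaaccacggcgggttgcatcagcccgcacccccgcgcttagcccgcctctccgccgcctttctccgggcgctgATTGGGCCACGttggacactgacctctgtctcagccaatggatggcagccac

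The other members lie, by the deposited mm10 coordinates, at chr12:44205897-44210068 (Dnajb9, − strand), chr16:17130138-17132383 (Sdf2l1, − strand), chr6:47796141-47813512 (Pdia4, − strand), chr6:108828641-108859356 (Edem1, + strand) and chr11:5520641-5525993 (Xbp1, + strand).

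At 24 h after TAM, Hspa5, Calr, Dnajb9, Pdia4, Pdia6 and Edem1 rose, 6 of the 10 genes, where 12.6% of all 14078 genes were called higher and 6.63% lower. The 4 genes that did not pass the test (Hsp90b1, Sdf2l1, Xbp1 and Herpud1) had positive log2 fold changes of 0.15 to 0.98. The median log2 fold change was 0.62 over the 10 genes and 0.03 over all genes. Without 24 h replicate 3, 8 of the 10 genes rose (16.6% of all genes), Sdf2l1 and Herpud1 now among them, and the median was 0.87, against 0.01 over all genes. The count rested on few libraries. It was 1 without before replicate 1, 2, 4 or 5 or without 24 h replicate 1 or 2, 2 without 24 h replicate 4, and 4 without before replicate 3 or any 8-week replicate, whereas the sign of each of the 10 genes stayed positive in all 22 other settings.

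**Figure D1:**
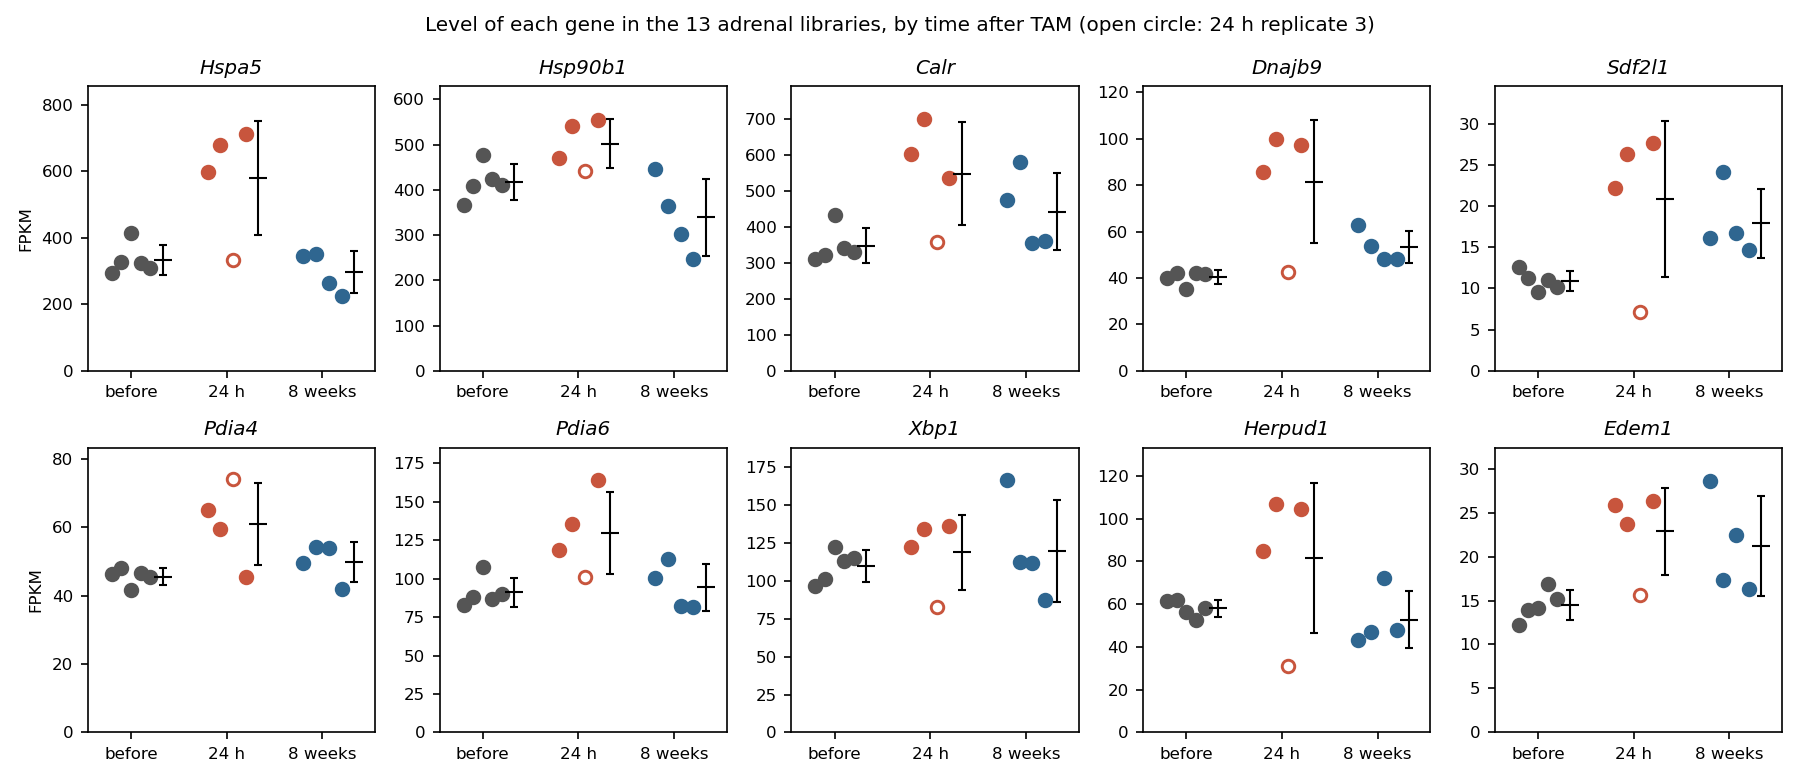
FPKM of each of the 10 genes (y axis, from 0) in every library, by time after TAM (x axis). Filled circles are libraries, the open circle is 24 h replicate 3, and the bar beside each group is the mean with the SD (n = 5, 4 and 4). The other 3 libraries at 24 h lie above the libraries before TAM for Hspa5, Calr, Dnajb9, Sdf2l1, Pdia6, Herpud1 and Edem1, and 24 h replicate 3 is the lowest of its group for every gene but Pdia4.

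Among the chaperones, Hspa5, the ER member of the HSP70 family, changed most. Hspa5 had 599, 678, 334 and 713 FPKM at 24 h, against 296, 326, 413, 325 and 309 FPKM before TAM. Replicates 1, 2 and 4 at 24 h lay above every library before TAM, and replicate 3 lay among them. Hspa5 rose by 0.84 on the log2 scale (SE 0.25, adjusted p = 0.0323, edgeR), a 1.79-fold difference, and by 1.07 without 24 h replicate 3 (adjusted p = 0.0015). Over 22 other settings the adjusted p of Hspa5 ran from 0.000165 to 0.178. The 2 RefSeq models of Hspa5 are listed separately and were summed. Calr, which encodes the lectin chaperone calreticulin, had 602, 700, 357 and 535 FPKM at 24 h, against 311, 323, 432, 341 and 331 FPKM before TAM. It shared with Hspa5 the low replicate 3 and rose by 0.69 on the log2 scale (SE 0.23, adjusted p = 0.0483, edgeR). Without that library the log2 fold change of Calr was 0.89 (adjusted p = 0.00397), and over the settings its adjusted p ran from 0.000231 to 0.205. Hsp90b1, the ER HSP90 chaperone GRP94 and the most abundant member before TAM, had 471, 541, 443 and 556 FPKM at 24 h, against 367, 408, 477, 424 and 412 FPKM before TAM. Its groups overlapped and it did not pass the test (log2 fold change 0.30, SE 0.20, adjusted p = 0.334, edgeR). Hsp90b1 was not called under any of the 22 other settings (log2 fold change 0.40 and adjusted p = 0.146 without 24 h replicate 3, and 0.0849 to 0.597 over the settings).

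The co-chaperones of BiP had the largest log2 fold changes at 24 h. Dnajb9, the J-domain protein ERdj4, had 85.7, 100, 42.8 and 97.3 FPKM at 24 h, against 40.2, 42.1, 35.4, 42.3 and 41.9 FPKM before TAM. Every 24 h library was above every library before TAM, although replicate 3 exceeded the highest of them by little. Dnajb9 was the only member of which this held with all libraries (9.75% of all genes lay wholly above). Dnajb9 rose by 1.06 on the log2 scale (SE 0.22, adjusted p = 0.00541, edgeR), a 2.08-fold difference, and by 1.31 without 24 h replicate 3 (adjusted p = 2.08e-05). It was called in all 22 other settings, with adjusted p from 5.19e-06 to 0.0348. Sdf2l1, which works with ERdj3 and BiP, had 22.2, 26.3, 7.11 and 27.7 FPKM at 24 h, against 12.6, 11.3, 9.51, 10.97 and 10.2 FPKM before TAM. Replicate 3 lay below every library before TAM and the other 3 lay above all of them. Sdf2l1 did not pass the test with all libraries (log2 fold change 0.98, SE 0.33, adjusted p = 0.0505, edgeR). Without 24 h replicate 3 it did, with a log2 fold change of 1.31 (adjusted p = 0.000186, and 0.000186 to 0.191 over the settings).

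The protein disulfide isomerases of the set rose by less. Pdia6 (P5) had 119, 135, 101 and 164 FPKM at 24 h, against 83.0, 88.1, 107, 87.0 and 89.7 FPKM before TAM. Replicate 3 fell within the range before TAM and the others lay above it. The log2 fold change of Pdia6 was 0.55 (SE 0.18, adjusted p = 0.0443, edgeR), or 0.70 without that library (adjusted p = 0.00651, and 0.00165 to 0.188 over the settings). Pdia4 (ERp72) ran another course over the libraries, with 65.0, 59.5, 74.1 and 45.5 FPKM at 24 h, against 46.2, 48.1, 41.6, 46.5 and 45.4 FPKM before TAM. Here replicate 3 was the highest of its group, and replicate 4, high for most other members, was at the level before TAM. Pdia4 rose by 0.43 on the log2 scale (SE 0.13, adjusted p = 0.0309, edgeR), or by 0.39 without 24 h replicate 3 (adjusted p = 0.0385), and its adjusted p ran from 0.00218 to 0.098 over the settings. The medulla markers summed to 19.6 and 117 FPKM in 24 h replicates 3 and 4, against 4135 and 2220 FPKM in 24 h replicates 1 and 2, and whether medulla content bears on Pdia4 was not tested.

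Of the genes for degradation, Edem1, a lectin that hands misfolded glycoproteins to the degradation machinery, had 25.8, 23.7, 15.6 and 26.3 FPKM at 24 h, against 12.2, 13.97, 14.1, 16.9 and 15.2 FPKM before TAM. Replicate 3 again lay within the range before TAM, with the other 3 above it. Edem1 rose by 0.70 on the log2 scale (SE 0.22, adjusted p = 0.0379, edgeR), or by 0.89 without replicate 3 (adjusted p = 0.00455, and 0.00237 to 0.14 over the settings). Herpud1, a membrane protein of the HRD1 ubiquitin ligase complex, had 84.8, 107, 31.1 and 104 FPKM at 24 h, against 61.5, 62.2, 56.3, 52.6 and 58.0 FPKM before TAM. As for Sdf2l1, replicate 3 lay below and the other 3 above the whole range before TAM. With all libraries Herpud1 did not pass the test (log2 fold change 0.54, SE 0.32, adjusted p = 0.261, edgeR). Without replicate 3 it rose by 0.85 on the log2 scale (adjusted p = 0.0064, and 0.00416 to 0.532 over the settings).

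**Figure D2:**
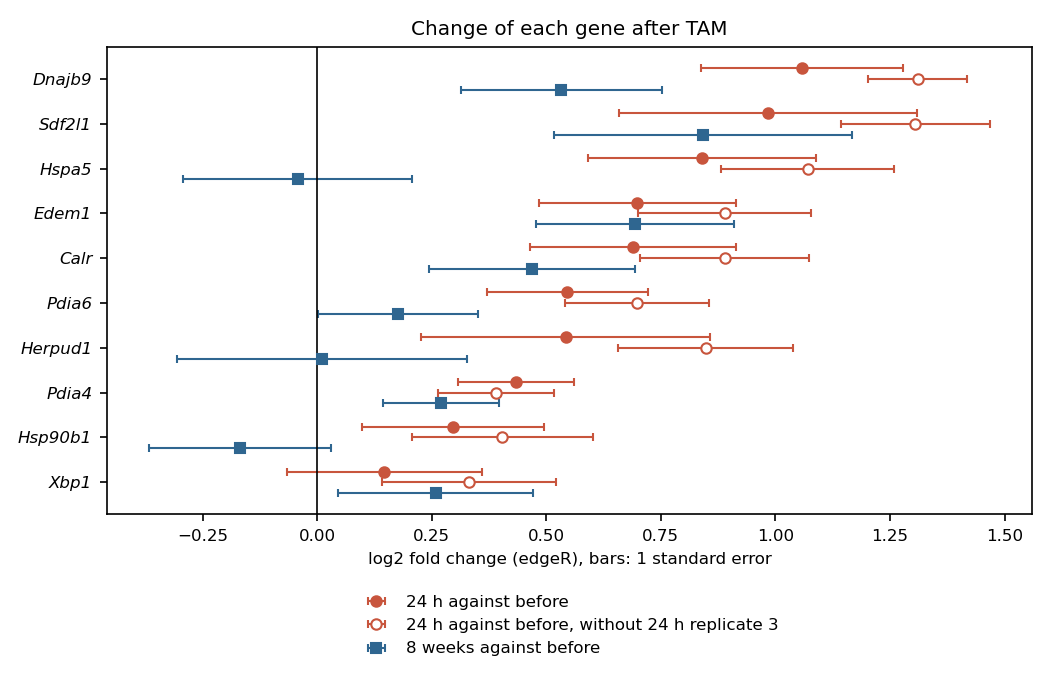
Log2 fold change with 1 standard error (x axis, edgeR) of each gene (y axis) for 24 h against before with all libraries (filled circles), for 24 h against before without 24 h replicate 3 (open circles), and for 8 weeks against before (squares). The 10 values for 24 h lie between 0.15 for Xbp1 and 1.06 for Dnajb9, and at 8 weeks Hspa5 and Hsp90b1 lie at −0.04 and −0.17 while Sdf2l1 and Edem1 lie at 0.84 and 0.69.

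Xbp1 encodes the transcription factor that IRE1 activates by splicing. Xbp1 had 122, 134, 82.7 and 136 FPKM at 24 h, against 96.7, 101, 122, 113 and 115 FPKM before TAM. The groups overlapped, and Xbp1 did not pass the test (log2 fold change 0.15, SE 0.21, adjusted p = 0.679, edgeR), nor without 24 h replicate 3 (log2 fold change 0.33, adjusted p = 0.215, the lowest of 22 other settings, which ran up to 0.937). The deposited tables list Xbp1 as 2 RefSeq models of 2221 and 2247 bases, which differ by the 26 bases that IRE1 removes. By the reading frame that their removal gives, they were placed at chr11:5524282-5524307 (GRCm38, + strand), in exon 4 of the GENCODE transcript Xbp1-201. Their removal shifts the reading frame, so that it runs for 371 codons instead of 267. The stretch is shown with 25 bases of exon on each side and the removed bases, as placed, in capitals. A CAG stands just before the capitals and another ends them. Removing the same length from the earlier CAG on gives the same product, so the reading frame cannot settle the exact cut sites.
Xbp1: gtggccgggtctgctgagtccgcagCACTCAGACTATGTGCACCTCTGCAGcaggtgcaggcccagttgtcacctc

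Only reads that touch this junction tell the Xbp1 models apart, and the others were divided between them by the authors' estimate, so the share below is an estimate too. The spliced model took 33.8, 44.7, 20.3 and 34.8% of Xbp1 FPKM at 24 h, against 22.8, 28.2, 24.2, 15.4 and 14.2% before TAM. At 24 h the libraries other than replicate 3 lay above every library before TAM. The means were 33.4 ± 10.03% (SD, n = 4) at 24 h and 20.9 ± 5.98% (SD, n = 5) before TAM, a difference of 12.4 percentage points that did not pass a two-sided exact permutation test (p = 0.063, 0.13 adjusted over 3 comparisons). Without replicate 3 the 24 h mean was 37.7 ± 6.00%, and the exact permutation p was 0.036, the smallest that 3 against 5 libraries can give (0.086 adjusted over 3). In FPKM, the spliced model of Xbp1 had 41.3, 59.8, 16.8 and 47.5 at 24 h, against 22.0, 28.5, 29.7, 17.4 and 16.4 before TAM. The unspliced model had 81.0, 74.2, 66.0 and 88.8 FPKM at 24 h, against 74.7, 72.7, 92.7, 95.9 and 98.9 FPKM before TAM, with overlapping groups. At 8 weeks the spliced share was 12.3, 20.5, 17.1 and 22.1%, within or just below the range before TAM. The 8-week mean was 18.0 ± 4.33% (SD, n = 4), 2.96 points below the mean before TAM (difference −2.96, exact permutation p = 0.41) and 15.4 points below that at 24 h (difference −15.4, exact permutation p = 0.086, 0.13 adjusted over 3).

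**Figure D3:**
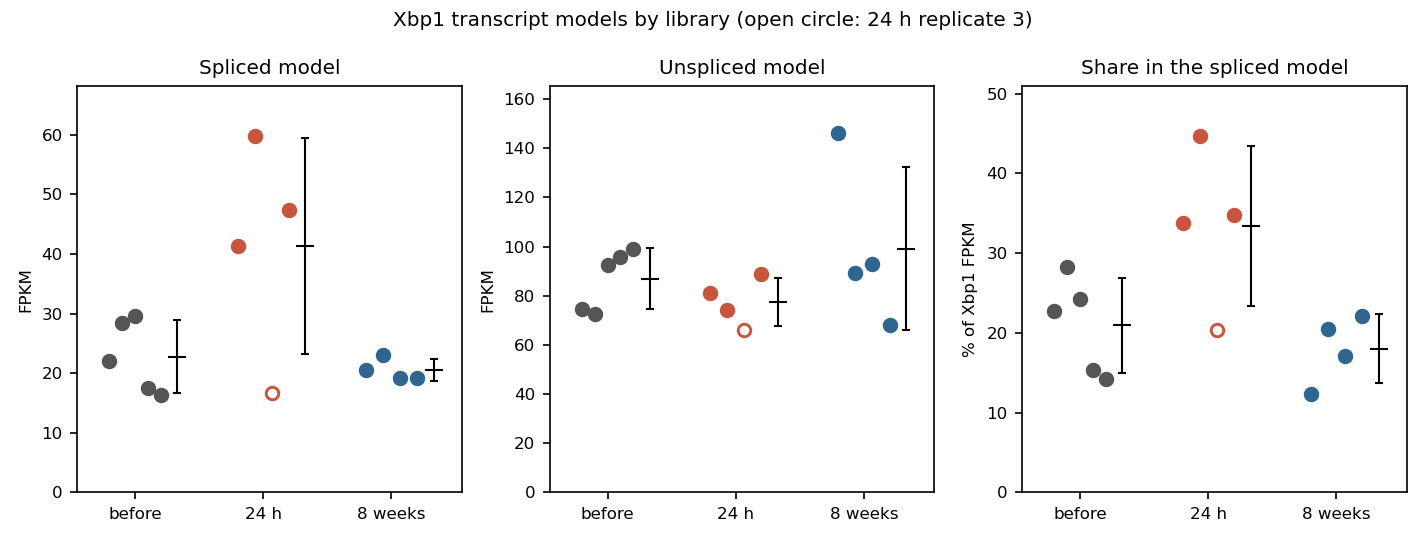
FPKM of the spliced (left) and unspliced (middle) models of Xbp1 and the percent of Xbp1 FPKM in the spliced model (right), by time after TAM. Circles are libraries, the open circle is 24 h replicate 3, and bars are means with the SD (n = 5, 4 and 4). Replicates 1, 2 and 4 at 24 h hold 33.8 to 44.7% in the spliced model, above the highest library before TAM at 28.2%.

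Seen by library, 3 of the 4 libraries at 24 h stood above those before TAM. The mean over the 10 genes of the log2 level relative to the libraries before TAM was 0.63, 0.77 and 0.75 in 24 h replicates 1, 2 and 4, and −0.06 in replicate 3. Of the 10 genes, 8, 10 and 9 lay above every library before TAM in replicates 1, 2 and 4, and 2 in replicate 3 (Dnajb9 and Pdia4). Without replicate 3, the 24 h libraries lay wholly above those before TAM for 7 of the 10 genes (15.2% of all genes). Before TAM the same mean ran from −0.07 to 0.07, and at 8 weeks it was 0.32, 0.27, 0.11 and −0.13. Among 9260 other genes, those whose levels followed this mean most closely over the 13 libraries were Ifrd1 (Pearson r = 0.94), Ly6e (0.94), Edem2 (0.94), Trib3 (0.92) and Lyn (0.92). These r values are a description, and the libraries they run over share their 3 groups and the low 24 h replicate 3.

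At 8 weeks after TAM, Edem1 was the 1 gene of 10 that rose (20.5% of all genes were called higher), and none of the 10 was called lower by edgeR (16.4% of all genes), with 3 at an unadjusted p under 0.05 and 2 called by DESeq2. Of all genes, 2882 were higher and 2311 lower, against 2424 higher and 3054 lower with no scaling factor and 2413 higher and 3189 lower by limma on log2(FPKM + 0.1). The median log2 fold change was 0.26 over the 10 genes and 0.03 over all genes. Edem1 had 28.6, 17.4, 22.5 and 16.3 FPKM at 8 weeks, against 12.2, 13.97, 14.1, 16.9 and 15.2 FPKM before TAM. Replicate 4 lay within the range before TAM and the others above it. Edem1 rose by 0.69 on the log2 scale (SE 0.22, adjusted p = 0.0231, edgeR), and the call was lost without before replicate 1, 2 or 5 or without 8-week replicate 1 or 3 (adjusted p 0.0087 to 0.0862 over the settings).

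Dnajb9 and Sdf2l1, the co-chaperones, did not pass the test at 8 weeks although their groups did not overlap. Dnajb9 had 62.9, 53.7, 48.4 and 48.0 FPKM at 8 weeks, all above the highest library before TAM at 42.3 FPKM (log2 fold change 0.53, SE 0.22, adjusted p = 0.0745, edgeR). Sdf2l1 had 16.1, 24.1, 16.7 and 14.7 FPKM at 8 weeks, all above the highest before TAM at 12.6 FPKM (log2 fold change 0.84, SE 0.33, adjusted p = 0.0583, edgeR). Of all genes, 18.1% lay wholly above in this comparison. The fit shares its estimate of spread over the 3 groups, and without 24 h replicate 3 both were called (adjusted p = 0.00184 for Dnajb9 and 0.00111 for Sdf2l1, with ranges of 0.00178 to 0.181 and 0.000906 to 0.154 over the settings), which made 3 of 10 genes called higher (24.3% of all genes). In the authors' deposited table, which compares 8 weeks with before TAM only, Dnajb9 has a log2 ratio of 0.39 with q = 0.0186. The authors' deposited table gives Sdf2l1 a log2 ratio of 0.69 with q = 0.0148 and Edem1 one of 0.52 with q = 0.0629. Every other member has a q of 0.176 or more in the authors' deposited table.

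Hspa5, Hsp90b1 and Calr, the abundant chaperones, did not pass the test at 8 weeks. Hspa5 had 347, 351, 264 and 226 FPKM at 8 weeks, against the 296 to 413 FPKM before TAM, and the groups overlapped (log2 fold change −0.04, adjusted p = 0.911, edgeR, negative in 20 of 22 other settings). Hsp90b1 had 445, 365, 302 and 247 FPKM at 8 weeks, with 3 of 4 libraries below the lowest before TAM at 367 FPKM (log2 fold change −0.17, SE 0.20, adjusted p = 0.531, edgeR). Calr had 475, 580, 354 and 362 FPKM at 8 weeks and did not pass the test (log2 fold change 0.47, SE 0.23, adjusted p = 0.12, edgeR). Replicates 1 and 2 of Calr lay above the highest library before TAM at 432 FPKM, and the other 2 did not. Herpud1 had 43.3, 47.0, 72.4 and 47.8 FPKM at 8 weeks, with replicate 3 above and the other 3 below the range before TAM (log2 fold change 0.01, adjusted p = 0.982, edgeR, positive in 11 of 22 other settings). Pdia4, Pdia6 and Xbp1 had log2 fold changes of 0.27, 0.18 and 0.26, with adjusted p from 0.113 to 0.453 by edgeR, and their groups overlapped. Xbp1 reached 167 FPKM in 8-week replicate 1, against 87.4 to 112 FPKM in the other 3. In that replicate the plasma cell markers (6 of 7 listed, none at 0) summed to 981 FPKM, against 118 to 242 FPKM in the other 8-week libraries, 27.5 to 48.0 FPKM at 24 h and 8.24 to 57.9 FPKM before TAM. Most of that sum came from 1 marker, the J chain gene. The other markers were divided. Among the 8-week libraries, replicate 1 was the highest for Mzb1 (38.6 FPKM), Pou2af1 (18.8 FPKM) and Prdm1 (1.97 FPKM). It was the lowest for Irf4 (7.98 FPKM) and Sdc1 (24.1 FPKM), and Irf4 was highest in replicate 4 (27.4 FPKM). Plasma cells depend on XBP1, and their part in its level was not tested.

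Between the later times, Hspa5 was the 1 gene of 10 that fell at 8 weeks relative to 24 h (log2 fold change −0.88, SE 0.27, adjusted p = 0.0348, edgeR), against 10.6% of all genes called lower and 10.2% higher (1495 lower and 1429 higher, or 2093 lower and 1181 higher with no scaling factor). The call was lost without any 1 of 24 h replicates 1, 2 and 4 or 8-week replicates 1 to 4. The median log2 fold change was −0.30 over the 10 genes and −0.03 over all genes. Without 24 h replicate 3, 6 genes fell (17.7% of all genes): Hspa5 by 1.15, Herpud1 by 0.87, Dnajb9 by 0.81, Hsp90b1 by 0.61, Pdia6 by 0.56 and Sdf2l1 by 0.50 on the log2 scale, with adjusted p from 0.000857 to 0.048 (edgeR). Over the 22 settings the adjusted p of these 6 ran from 0.000857 to 0.979. Edem1, Calr, Pdia4 and Xbp1 were not called between these times in any setting.

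The other genes of the pathway were read from 8 lists of 118 genes, of which 17 rose and 6 fell at 24 h, where 12.6% of all genes rose and 6.63% fell, and 5 rose and 31 fell at 8 weeks, where 20.5% of all genes rose and 16.4% fell. Without 24 h replicate 3, 44 rose and 4 fell at 24 h, where 2341 of all 14078 genes rose and 1657 fell. In the same fit 8 rose and 47 fell at 8 weeks, where 3416 of all genes rose and 3290 fell. In the PERK-ATF4-CHOP branch 7 of 11 genes rose and 1, Cebpb, fell at 24 h, or 9 rose and Cebpb lost its call without 24 h replicate 3. Trib3, a pseudokinase that CHOP induces, had 20.3, 30.1, 1.42 and 28.8 FPKM at 24 h, against 1.47, 1.09, 1.49, 2.33 and 1.13 FPKM before TAM (log2 fold change 3.81, SE 0.63, adjusted p = 0.0013, edgeR). Replicate 3 lay within the range before TAM, as it did for Hspa5, Hsp90b1, Calr, Pdia6 and Edem1. Atf3, a transcription factor induced by ATF4, had 35.7, 37.9, 13.6 and 27.3 FPKM at 24 h, against 4.31, 3.17, 1.49, 1.29 and 1.57 FPKM before TAM (log2 fold change 3.64, adjusted p = 0.000175, edgeR). Its groups did not overlap. Ddit3, which encodes CHOP, rose by 1.37 on the log2 scale (adjusted p = 0.00366, edgeR). At 8 weeks 2 of the 11 (18.2%) were called, both higher, Atf3 (4.25) and Nupr1 (2.58 on the log2 scale). Of all genes, 20.5% were called higher in that comparison. With 24 h replicate 3 left out, 4 of the 11 were called higher and 1 lower, against 3416 and 3290 of all 14078 genes. The 1 lower was Chac1 (−1.08 on the log2 scale, adjusted p = 0.0153, edgeR). Ddit3 fell by 1.55 and Trib3 by 2.65 on the log2 scale at 8 weeks relative to 24 h (adjusted p = 0.00586 and 0.017, edgeR).

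Among the 10 genes for the sensors and their processing, Eif2ak3, which encodes PERK, and Atf6 rose at 24 h (log2 fold changes 0.88 and 0.64, adjusted p = 0.0151 and 0.0244, edgeR) and Ern1, which encodes IRE1 alpha, fell. Of all genes, 12.6% rose and 6.63% fell at 24 h. In the fit without 24 h replicate 3, 4 of the 10 rose (16.6% of all genes) and the call of Ern1 was lost. Ern1 had 8.97, 6.28, 5.67 and 3.81 FPKM at 24 h, against 16.8, 37.8, 15.2, 22.8 and 25.3 FPKM before TAM (log2 fold change −1.91, SE 0.59, adjusted p = 0.0377, edgeR). The log2 fold change of Ern1 was −1.82 without 24 h replicate 3 (adjusted p = 0.0589), and over 22 other settings its adjusted p ran from 0.00189 to 0.157. At 8 weeks it had 0.615, 0.565, 4.42 and 3.72 FPKM (log2 fold change −3.16, adjusted p = 0.0019, edgeR). Neither later group overlapped with the libraries before TAM, so the transcript of the enzyme that splices Xbp1 was higher in every library before TAM than in any after it. At 8 weeks 3 of the 10 sensor genes were called, all lower, Creb3l2 (−1.99 on the log2 scale), Ern1 and Mbtps1 (−0.58), where 16.4% of all genes were called lower. Without 24 h replicate 3, 7 of the 10 were called lower, against 3290 of all 14078 genes. The call of Mbtps1 (adjusted p = 0.048, edgeR) held in 4 of the 13 fits that leave out 1 library, and its adjusted p ran from 0.00191 to 0.138 over 22 other settings.

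Of the other 23 folding genes of the ER, 2 (8.7%) rose and 1 (4.35%) fell at 24 h, where 12.6% and 6.63% of all genes did. Erp29 and Ero1l, the oxidase that recharges the disulfide isomerases, rose (log2 fold changes 0.61 and 0.87, adjusted p = 0.0223 and 0.0369, edgeR). Their calls held in 9 and 5 of the 13 fits that leave out 1 library. The adjusted p of Ero1l ran from 1.19e-05 to 0.122 over 22 other settings. Sil1, a nucleotide exchange factor of BiP, fell (−0.49, adjusted p = 0.00628, edgeR). Without 24 h replicate 3, 8 of the 23 rose and 1 fell, against 2341 and 1657 of all 14078 genes. At 8 weeks 1 of the 23 (4.35%) rose and 5 (21.7%) fell, where 20.5% and 16.4% of all genes did. Without 24 h replicate 3, 7 of the 23 fell, against 3290 of all 14078 genes. Hyou1, the HSP70-related exchange factor GRP170, had 21.6, 27.5, 29.6 and 27.6 FPKM at 8 weeks, against 45.1, 64.7, 64.4, 61.1 and 57.3 FPKM before TAM (log2 fold change −1.0, SE 0.25, adjusted p = 0.00781, edgeR). The groups did not overlap, and both exchange factors of BiP were thus lower at 8 weeks while Hspa5 itself overlapped with its earlier level (Sil1 −0.70, adjusted p = 0.000307, edgeR).

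Of 20 other genes for ER-associated degradation, 3 (15.0%) rose (Edem2, Derl3 and Herpud2) and 1 (5.0%) fell (Edem3) at 24 h, where 12.6% and 6.63% of all genes did. Without 24 h replicate 3, 10 rose and 1 fell, against 2341 and 1657 of all 14078 genes. The EDEM family, the mannosidase-like proteins that mark glycoproteins for degradation, split. Edem2 had 64.2, 90.0, 26.5 and 82.9 FPKM at 24 h, against 32.7, 27.8, 27.6, 23.2 and 24.6 FPKM before TAM (log2 fold change 1.33, SE 0.30, adjusted p = 0.00775, edgeR), with replicate 3 again at the level before TAM. Edem3 had 24.2, 27.1, 24.5 and 20.5 FPKM at 24 h, against 41.9, 30.4, 45.2, 43.0 and 45.2 FPKM before TAM (log2 fold change −0.76, SE 0.15, adjusted p = 0.00361, edgeR). Its groups did not overlap, and at 8 weeks Edem3 had 11.4, 9.37, 7.97 and 10.8 FPKM (log2 fold change −1.93, SE 0.15, adjusted p = 6.23e-06, edgeR). Thus Edem1 was called higher at both times and Edem3 called lower at both. At 8 weeks 1 of the 20 rose (Selk) and 6 fell, among them Vcp, the ATPase that pulls substrates out of the ER membrane (−0.61, adjusted p = 0.00628, edgeR). Of all genes, 20.5% rose and 16.4% fell at 8 weeks. With 24 h replicate 3 left out, 2 of the 20 rose and 9 fell at 8 weeks, against 3416 and 3290 of all 14078 genes.

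Of 21 genes for the translocon, the signal peptidase and the oligosaccharyltransferase, Ssr3 alone rose at 24 h (0.54 on the log2 scale), where 12.6% of all genes did. Without 24 h replicate 3, 7 rose (16.6% of all genes). At 8 weeks Stt3a, Dad1 and Rpn1, subunits of the oligosaccharyltransferase, fell (−0.55, −0.87 and −0.49 on the log2 scale, adjusted p from 0.00771 to 0.0248, edgeR). These were 3 of the 21 (14.3%), where 16.4% of all genes fell. The fit that left out 24 h replicate 3 called 6 of the 21 lower, against 3290 of all 14078 genes. Of 13 genes for traffic between ER and Golgi, 2 (15.4%) were called at 24 h, both higher, where 12.6% of all genes were. Without 24 h replicate 3, 5 were called higher (16.6% of all genes). Kdelr3, a receptor that returns escaped ER proteins such as BiP, had 13.7, 11.5, 9.39 and 15.9 FPKM at 24 h, against 3.20, 3.11, 3.42, 1.99 and 2.91 FPKM before TAM (log2 fold change 2.14, SE 0.25, adjusted p = 0.000208, edgeR). The groups did not overlap, and Kdelr3 was higher at 8 weeks too (1.61, adjusted p = 0.000347, edgeR). At 8 weeks 4 of the 13 (30.8%) fell, including the COPII coat genes Sec23b (−0.92) and Sec24d (−1.38), where 16.4% of all genes fell. With 24 h replicate 3 left out, 5 of the 13 fell, against 3290 of all 14078 genes.

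Of 12 cytosolic heat shock genes, 1 (8.33%) was called lower at 24 h, Hspa4l (−0.79 on the log2 scale), where 6.63% of all genes were. At 8 weeks 7 (58.3%) were called lower, Hspa4 (−0.66) and Hsp90ab1 (−0.59) among them, where 16.4% of all genes were. The fit that left out 24 h replicate 3 called 8 of the 12 lower, against 3290 of all 14078 genes. At 24 h, 1 of the 12 was called higher and 1 lower without 24 h replicate 3, against 2341 and 1657 of all 14078 genes. Hspa1b was among the genes called lower at 8 weeks (−1.48 on the log2 scale), and its reads may be split with its near-identical copy Hspa1a. Of 8 mitochondrial chaperone and protease genes, 1 (12.5%) was called lower at 24 h (Trap1, −0.70), against 6.63% of all genes. At 8 weeks 3 (37.5%) were called lower, Lonp1 (−1.98), Hspd1 (−1.44) and Hspe1 (−1.06), against 16.4% of all genes. With 24 h replicate 3 left out, 4 of the 8 were called lower, against 3290 of all 14078 genes. The markers of the steroid-making cortex, whose cells are rich in mitochondria, moved with these falls, 6 of 10 being called lower at 8 weeks (10 of 10 without 24 h replicate 3) with a sum of 1893 to 4854 FPKM, against 19380 to 31770 FPKM before TAM. The part of cortex content in these differences was not tested.

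**Figure D4:**
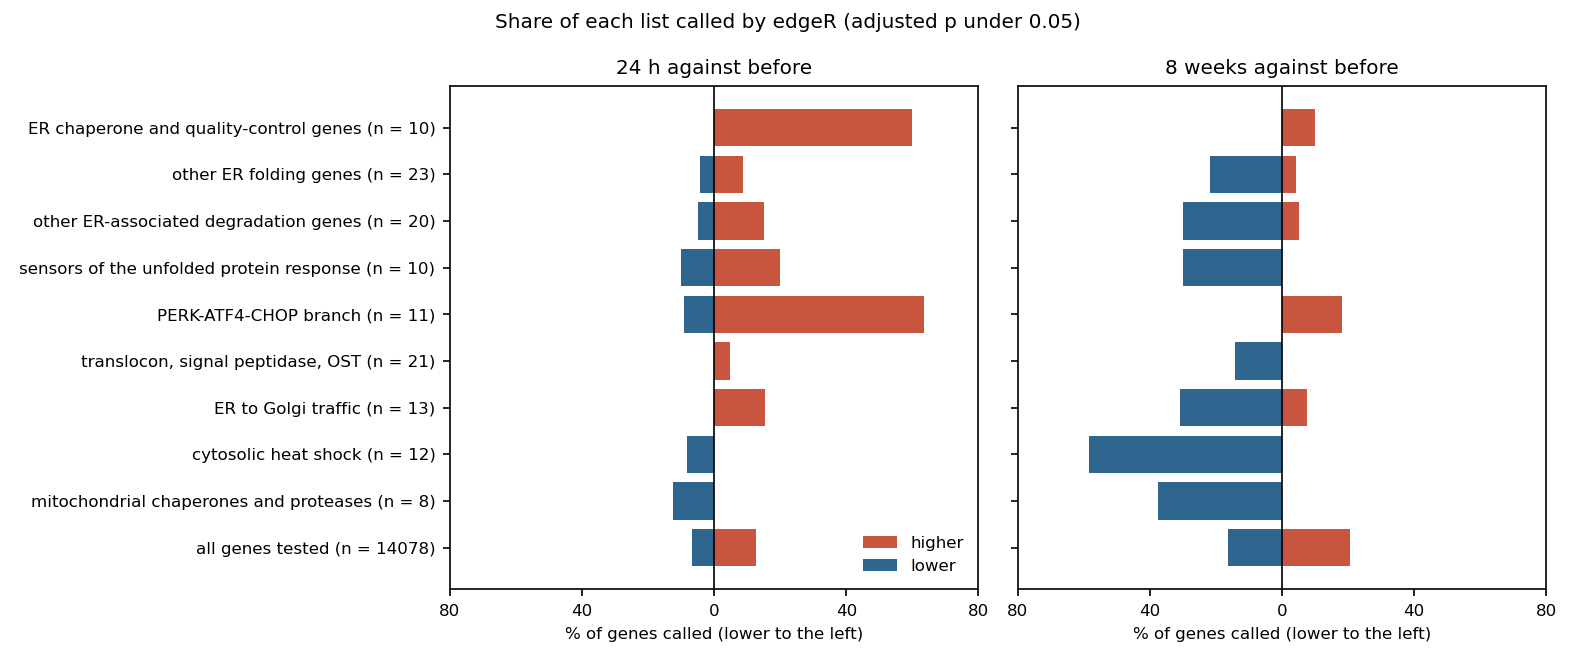
Percent of the genes of each list called higher (bars to the right) or lower (bars to the left) by edgeR at an adjusted p under 0.05, for 24 h against before (left panel) and 8 weeks against before (right panel), with all genes tested in the lowest row. The 10 ER chaperone and quality-control genes and the PERK-ATF4-CHOP branch have 6 of 10 and 7 of 11 genes called higher at 24 h, and the cytosolic and mitochondrial lists have 1 gene each called, lower.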

How the data were processed

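The data were 13 stranded mRNA libraries of mouse adrenal gland. The authors deposited estimated counts and FPKM per RefSeq transcript, per the file headers. The submitters' processing notes name the build mm10 (GRCm38), TopHat2 2.0.14 and bcl2fastq 2.17. What program made the estimated counts before they were deposited was not stated. The authors also deposited log2 ratios, p-values and q-values for 8 weeks against before TAM. Of 19655 and 19191 listed transcripts, the 18738 common to all tables were kept, and their counts were summed to 14078 genes and rounded.

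Groups follow the titles. 1 fit of all libraries (edgeR 4.0.16 quasi-likelihood, TMM, filterByExpr, R 4.3.3) gave the 3 comparisons, with Benjamini-Hochberg adjustment over all genes, a threshold of 0.05, and a prior test on simulated data. All 14078 genes passed the filter. Shares of Xbp1 models were compared by exact permutation tests. limma 3.58.1, DESeq2 1.42.0, other scalings, a replicate block and leaving out each library were alternatives.

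The members and lists were chosen with earlier results of these data known. All members are named, and up to 3 genes per other list and comparison by the lowest p. Cebpb, Herpud2, Selk, Vcp and Hsp90ab1 were named after their values were seen. The list medians and counts are descriptions. Promoters came from RefSeq (GRCm38.p6), and the Xbp1 exon and the starts of coding transcripts from GENCODE (GRCm38).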

Additional observations from a re-analysis of the deposited data

Results flagged for a closer look

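Among 33 groups, of member levels and of the Xbp1 spliced share at each time, tested for an outlying library, 4 held one, where chance gives about 5% of groups. Before replicate 3 was far above the rest of its group for Hspa5 (413 FPKM), Calr (432 FPKM) and Pdia6 (107 FPKM). The 8-week replicate 3 was far above the rest of its group for Herpud1 (72.4 FPKM). The response of Hspa5 differed between the times: the effect at 8 weeks minus the effect at 24 h was −0.88 on the log2 scale (adjusted p = 0.0348, edgeR, 0.00145 to 0.106 over 22 other settings). This is the comparison of 8 weeks with 24 h given above and not a further test. Its call held in 6 of the 13 fits that leave out 1 library.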

How the results depend on the processing

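The count of members called at 24 h, 6 with all libraries, was 3 with only the 2 compared groups in the fit and 1 with a replicate block, and it ran from 1 to 8 when 1 library was left out. At 8 weeks against before the count of 1 became 2 with DESeq2, 3 with only the compared groups, 0 with a replicate block and 5 with voom quality weights, and ran from 0 to 3 without 1 library. At 8 weeks against 24 h the count of 1 became 2 with limma on log2(FPKM + 0.1) or log2(FPKM + 1), 0 with only the compared groups, 0 with a replicate block and 4 with voom quality weights, and ran from 0 to 6. The cause of these moves was not tested. Deviations of 12 same-numbered pairs of libraries correlated at −0.13 to 0.28, and 2 of 12 libraries matched their own number best. The labels do not state whether the numbers pair the libraries, and these correlations cannot exclude a shared animal or batch. Of all genes, the 2708 called at 24 h became 1312 with the replicate block and 5377 with voom quality weights, and the 5193 called at 8 weeks became 8101 with voom quality weights. The 2924 called between the later times became 973 with only the compared groups, 1661 with the replicate block, and 1782, 1808 and 1941 without 8-week replicates 1, 2 and 4. The Xbp1 share stayed on its side of the threshold with estimated counts. Omitting the scaling factor moved the median of all genes at 8 weeks by −0.13 (log2). The filter removed no gene, so its omission changed nothing.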
